A study of Mus musculus with 33 samples.

Results

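Complete loss of n-Tr20 on the C57BL/6J (B6J) background was compared with restored n-Tr20 on the same background, in 9 of the 33 libraries of the series, chosen by their titles. The knockout group held 4 B6J mice of genotype n-Tr20 -/-, and the other group 4 B6J mice with a transgene, Tg(n-Tr20), that carries the C57BL/6NJ (B6N) form of the tRNA. All were 8 weeks old, and RNA from forebrain was depleted of ribosomal RNA before sequencing. The 4 knockout libraries were all made in batch 2 and the 4 transgenic libraries in batch 1, and transgenic mouse 4 was sequenced a second time in batch 2 (its repeat library). Because both groups are B6J, both carry the other B6J alleles, such as that of the mitochondrial transhydrogenase gene Nnt. The labels give no promoter, copy number or insertion site for the transgene, and do not say whether any sample pooled animals. The main fit also took in forebrain libraries of 4 B6N, 4 B6N n-Tr20 knockout and 4 B6J mice without the transgene. All of these were 8 weeks old and in batch 1. The labels number the samples without naming animals, so p-values measure the spread between libraries. That spread was estimated in a fit of all 21 forebrain libraries. Within the transgenic group it comes from the mice other than mouse 4. Neither library of mouse 4 adds to the estimate, because a coefficient of its own and the batch term fit this pair exactly. An error in that single pair beyond this spread is not measured.

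n-Tr20 is a tRNA for arginine that reads AGA codons and is made mainly in neurons, where it is the most abundant tRNA of its kind. A B6J variant in this gene is known to impair maturation of the tRNA, so B6J mice that lack the transgene hold little of it. When ribosomes stall for want of a charged tRNA, the kinase GCN2 (Eif2ak4) can phosphorylate eIF2, which lowers general translation but favours translation of the transcription factor ATF4. This integrated stress response (ISR) is known to raise transcripts for amino acid synthesis and uptake, for tRNA synthetases and for stress regulators. The RefSeq annotation of GRCm38 places the gene (n-TRtct5) on chromosome 1, positions 173390329 to 173390402, inside the annotated span of Aim2, an immune DNA sensor, and close to Cadm3, a neuronal adhesion gene. The tables have no row for n-Tr20 itself, so the genotype labels could not be checked on the deleted tRNA. Aim2 was at 5.04, 6.13, 4.25 and 6.37 CPM in knockout mice and at 4.95, 5.97, 5.96 and 5.15 CPM in transgenic mice (CPM, estimated counts per 1000000, scaled between libraries). Of 9 neighbours of n-Tr20 that were tested, none passed the test.

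Total estimated counts ran from 14796263 to 20700781 in knockout libraries and from 17169207 to 23087714 in batch 1 transgenic libraries, and reached 38489757 in the repeat library. Knockouts 1 to 3 held Xist RNA, the mark of 2 X chromosomes, at 335 to 369 CPM, while knockout 4 and the transgenic libraries held Ddx3y RNA from the Y chromosome at 49.4 to 71.6 CPM. Sex therefore differed between the groups in all but knockout 4. The 18 choroid plexus markers summed to 950 to 1220 CPM in knockout libraries, against 311 to 392 CPM in batch 1 transgenic libraries and 339 CPM in the repeat library. Mitochondrial transcripts took 13.97% and 14.6% of counts in knockouts 1 and 2, 9.16% and 9.96% in knockouts 3 and 4, and 9.15% to 10.1% in the transgenic libraries. The label of forebrain was checked on marker lists: 12 neuron markers summed to 6010 to 6310 CPM in knockout and 5950 to 6330 CPM in batch 1 transgenic libraries, and 9 pituitary markers to 2.62 to 5.5 CPM and 4.17 to 6.25 CPM in those groups. In these bulk samples fewer cells of a type and less RNA per cell cannot be told apart.

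**Figure D1:**
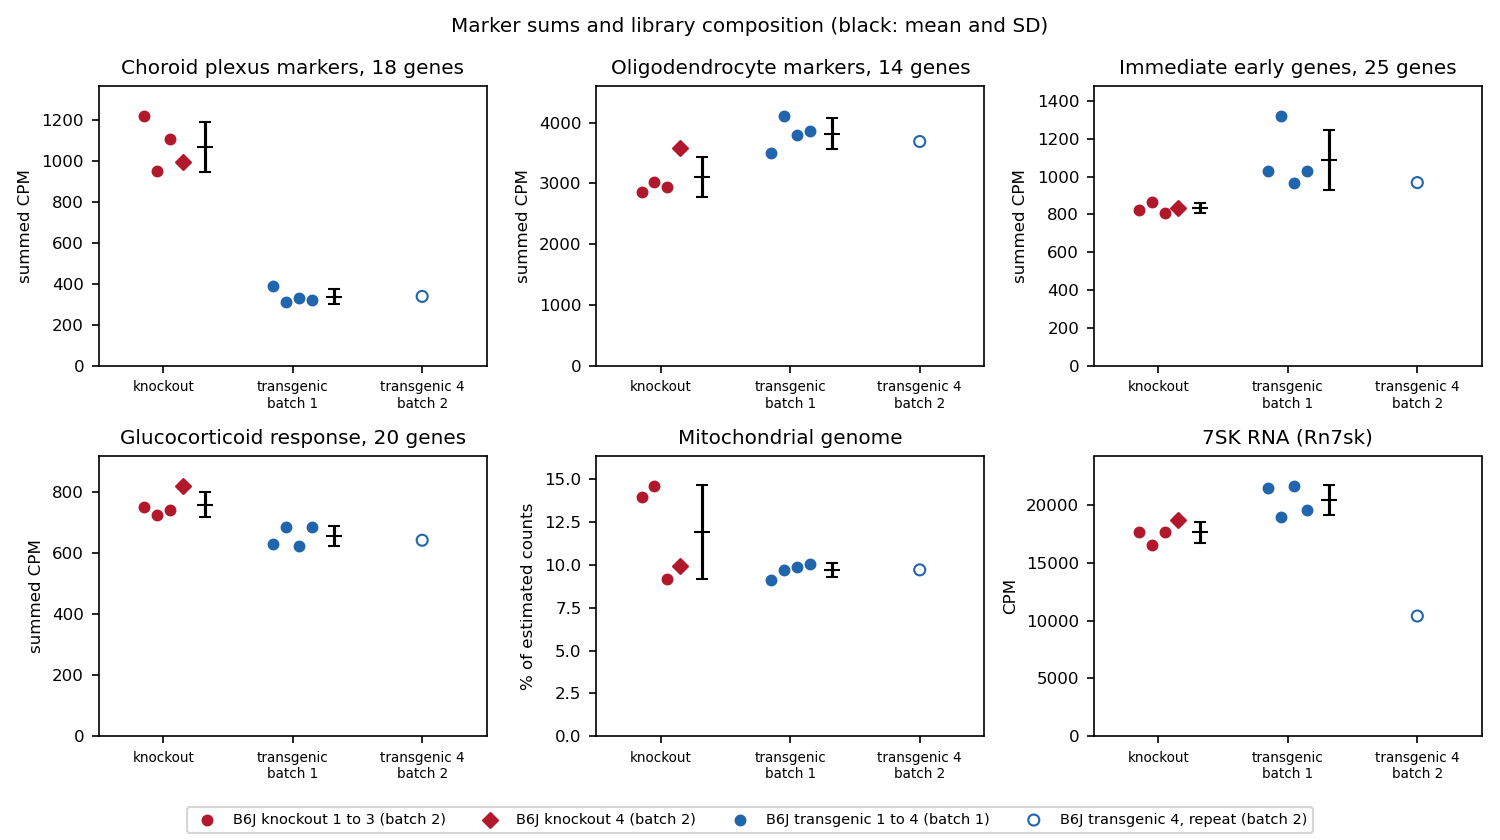
Summed CPM of 4 gene lists, the mitochondrial share of counts (%) and the CPM of 7SK RNA in each library (y axes), with knockout libraries left of batch 1 transgenic libraries and of the repeat of transgenic mouse 4; points are libraries, the black mark is the mean with its SD, and no error is drawn for the single repeat library. Choroid plexus markers sat at 950 CPM or more in every knockout library and at 392 CPM or less in every transgenic one, while 7SK RNA was lowest, at 10400 CPM, in the repeat library.

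Of 25481 genes tested, 188 (0.738%) passed at an adjusted p of 0.05 (edgeR quasi-likelihood, Benjamini-Hochberg), 139 of them higher (0.546%) and 49 lower (0.192%) in knockout than in transgenic forebrain. An unadjusted p under 0.05 was reached by 2966 genes. Most changes were small, and 23 of the 188 exceeded a log2 fold change of 1 in size. The fitted fold change takes the ratio of knockout to batch 1 transgenic libraries and divides it by the ratio of the repeat to the first library of transgenic mouse 4. Every call therefore turns also on that single pair of libraries. Of the 188, 18 were also called when the 9 libraries were fitted alone, 50 with an offset for transcript length, 51 with knockout 4 alone and 74 with the summed choroid plexus markers as a covariate.

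How the called genes sat against the transgenic libraries of each batch was counted. Separation from the repeat library is largely built into a call, because the fit subtracts the step between the 2 libraries of mouse 4. All 139 genes that rose were higher in every knockout library than in the repeat library, and 80 of them were also higher than in all 4 batch 1 transgenic libraries. Of the 49 that fell, all were below the repeat library and 32 were also below all 4 batch 1 libraries. These 112 genes did not overlap between the groups in either batch. Among all genes tested, 4.36% lay above and 3.33% below all 5 transgenic libraries. The other 76 calls were separated in the called direction from the repeat library only. Of these, 74 overlapped batch 1, and 2 that rose, Rn7sk and Hdac11, lay below all 4 batch 1 libraries. In all, 18 that rose and 2 that fell had a knockout mean on the opposite side of the batch 1 mean.

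The clearest such gene was Rn7sk, which encodes 7SK RNA, the noncoding RNA that holds the elongation factor P-TEFb inactive. It was at 17700, 16500, 17700 and 18700 CPM in knockout libraries, against 21500, 19000, 21600 and 19600 CPM in batch 1 transgenic libraries and 10400 CPM in the repeat library. Knockout levels were thus below every batch 1 library and above the repeat, and the fitted log2 fold change was 0.71 ± 0.08 (SE, edgeR adjusted p = 0.00136). Gm49450, an unnamed gene model, was at 53.6 to 70.7 CPM in knockout libraries, 48.5 to 69.1 CPM in batch 1 transgenic libraries and 14.2 CPM in the repeat library. For Gm44123 the repeat library was at 0 and the other 8 libraries ran from 0.637 to 1.1 CPM. Edf1, a factor known to bind collided ribosomes, also passed the test with knockout values of 45.9 to 51.1 CPM, below or within the batch 1 range of 48.7 to 54.1 CPM and above the repeat library at 37.5 CPM.

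**Figure D2:**
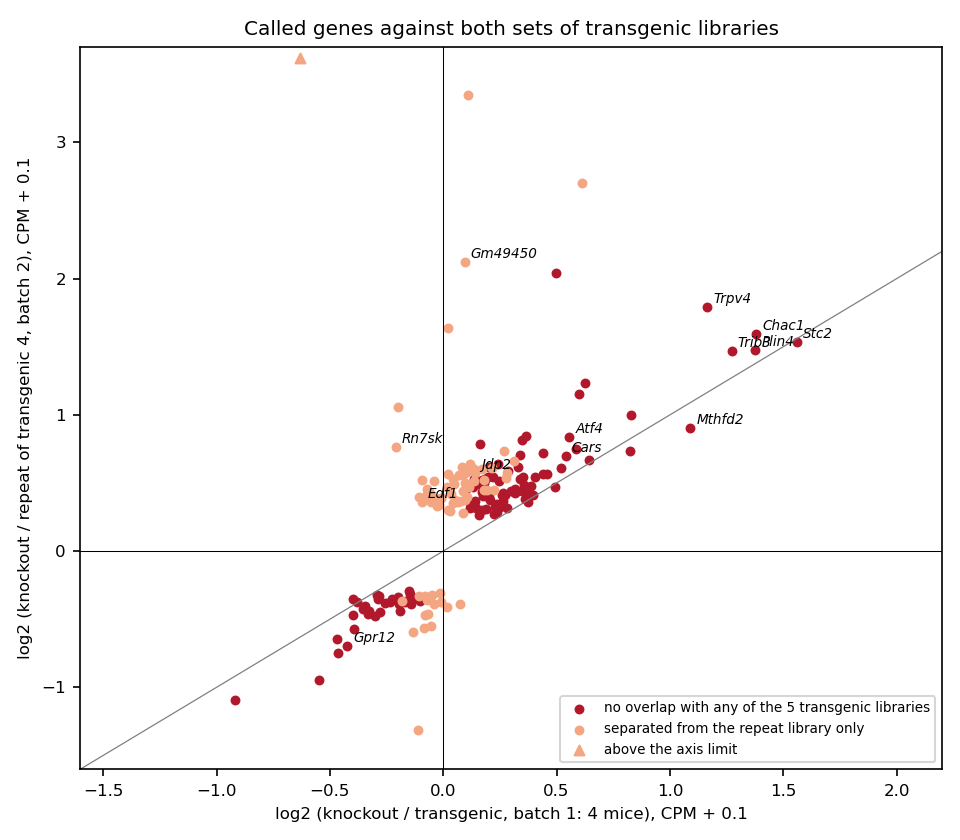
Each point is 1 of the 188 called genes, placed by the log2 ratio of mean knockout to mean batch 1 transgenic level (x axis) and of mean knockout level to the repeat library (y axis), on CPM + 0.1; the grey line marks equal ratios and the triangle a gene above the axis limit. Dark points did not overlap any of the 5 transgenic libraries, pale points were separated in the called direction from the repeat library only, and Atf4, Stc2, Cars and Chac1 are among the dark points while Rn7sk and Edf1 lie left of 0 on the x axis.

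The transcription factor Atf4 and 2 other ISR regulators, Trib3 and Jdp2, rose in knockout forebrain. Of 11 tested regulators 3 rose (against 0.546% of all genes), none fell, and all 11 had a log2 fold change above 0, with a median of 0.54, against a median of 0.01 and 51.2% above 0 over all genes tested. Atf4 was at 86.5, 88.0, 86.2 and 94.0 CPM in knockout mice and at 58.9, 61.2, 62.8 and 58.1 CPM in transgenic mice, with 49.6 CPM in the repeat library. The groups did not overlap, and the means were 88.7 ± 3.65 CPM in knockout and 60.3 ± 2.15 CPM in transgenic mice (SD, n = 4 each). The fitted log2 fold change was 0.79 ± 0.08 (SE, edgeR adjusted p = 2e-06), a 1.72-fold rise. Atf4 stayed called under each of the 20 alternative settings, at 0.55 to 0.87. In male knockout 4, a single library, its level of 94.0 CPM was above every male transgenic library.

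Trib3, a pseudokinase that ATF4 induces and that restrains it in turn, was far less abundant. It was at 0.939, 0.957, 0.89 and 1.05 CPM in knockout mice, against 0.242, 0.29, 0.307 and 0.579 CPM in transgenic mice and 0.282 CPM in the repeat library. All 4 knockout values exceeded every transgenic one, and the log2 fold change was 2.52 ± 0.63 (SE, edgeR adjusted p = 0.0488). Mouse 4 supplied both the highest and one of the lower transgenic values of Trib3, and the plain log2 ratios of knockout to batch 1 and to the repeat library were 1.27 and 1.47. Its call was lost when knockout 1, 2 or 4 was left out (adjusted p = 0.069, 0.064 and 0.0699) and with the choroid plexus covariate (adjusted p = 0.231). Jdp2, a bZIP repressor that pairs with AP-1 and stress factors, rose by 0.63 ± 0.12 (SE, adjusted p = 0.0051). Its knockout levels of 23.9 to 27.1 CPM overlapped the batch 1 levels of 21.7 to 24 CPM, and the repeat library was lower at 17.0 CPM. Without a batch term its log2 fold change was 0.14 (adjusted p = 0.139), and with the length offset it was not called (adjusted p = 0.167). Other regulators came close without passing, among them Ddit3, the pro-apoptotic factor CHOP, at 0.54 ± 0.14 (adjusted p = 0.0595), and Atf5, a close relative of ATF4, at 0.89 ± 0.25 (adjusted p = 0.0874).

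Among effectors and secreted factors of ATF4, 4 of 13 tested genes rose (against 0.546% of all genes) and none fell. The median log2 fold change was 0.43. Stc2, a secreted glycoprotein of the stanniocalcin family, was at 3.76, 4.15, 4.79 and 3.45 CPM in knockout mice and at 1.07, 1.8, 0.965 and 1.5 CPM in transgenic mice, with 1.32 CPM in the repeat library. No knockout library fell within the transgenic range, and the rise was 1.81 ± 0.36 in log2 (SE, edgeR adjusted p = 0.00865), or 3.5-fold. It lost the call with the 9 libraries alone and with the offset for transcript length (adjusted p = 0.11 and 0.153). Chac1, the enzyme that degrades glutathione in the cytosol, was at 6.97, 7.72, 7.39 and 7.95 CPM in knockout mice, against 3.35, 2.72, 2.72 and 2.55 CPM in transgenic mice and 2.42 CPM in the repeat library. Its lowest knockout value was above its highest transgenic value, and it rose 2.78-fold (log2 1.48 ± 0.26, SE, adjusted p = 0.00338). Lonp1, the main protease of the mitochondrial matrix, rose by 0.60 ± 0.10, and Herpud1, which works in disposal of misfolded proteins from the endoplasmic reticulum, by 0.43 ± 0.10 (SE, adjusted p = 0.00182 and 0.0379). Lonp1 stayed called in all 20 alternatives, while Herpud1 was lost with the length offset (adjusted p = 0.138) and when knockout 1, 2 or 4 was left out (adjusted p = 0.0537, 0.0566 and 0.0506). Sesn2, an inhibitor of mTORC1 that senses leucine, had a log2 fold change of 0.74 ± 0.21 but did not pass (adjusted p = 0.0853). The stress hormones Fgf21 and Gdf15, and Adm2, were too low to be tested, with Gdf15 at 0.0585 to 0.319 CPM in knockout and 0 to 0.097 CPM in batch 1 transgenic libraries.

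**Figure D3:**
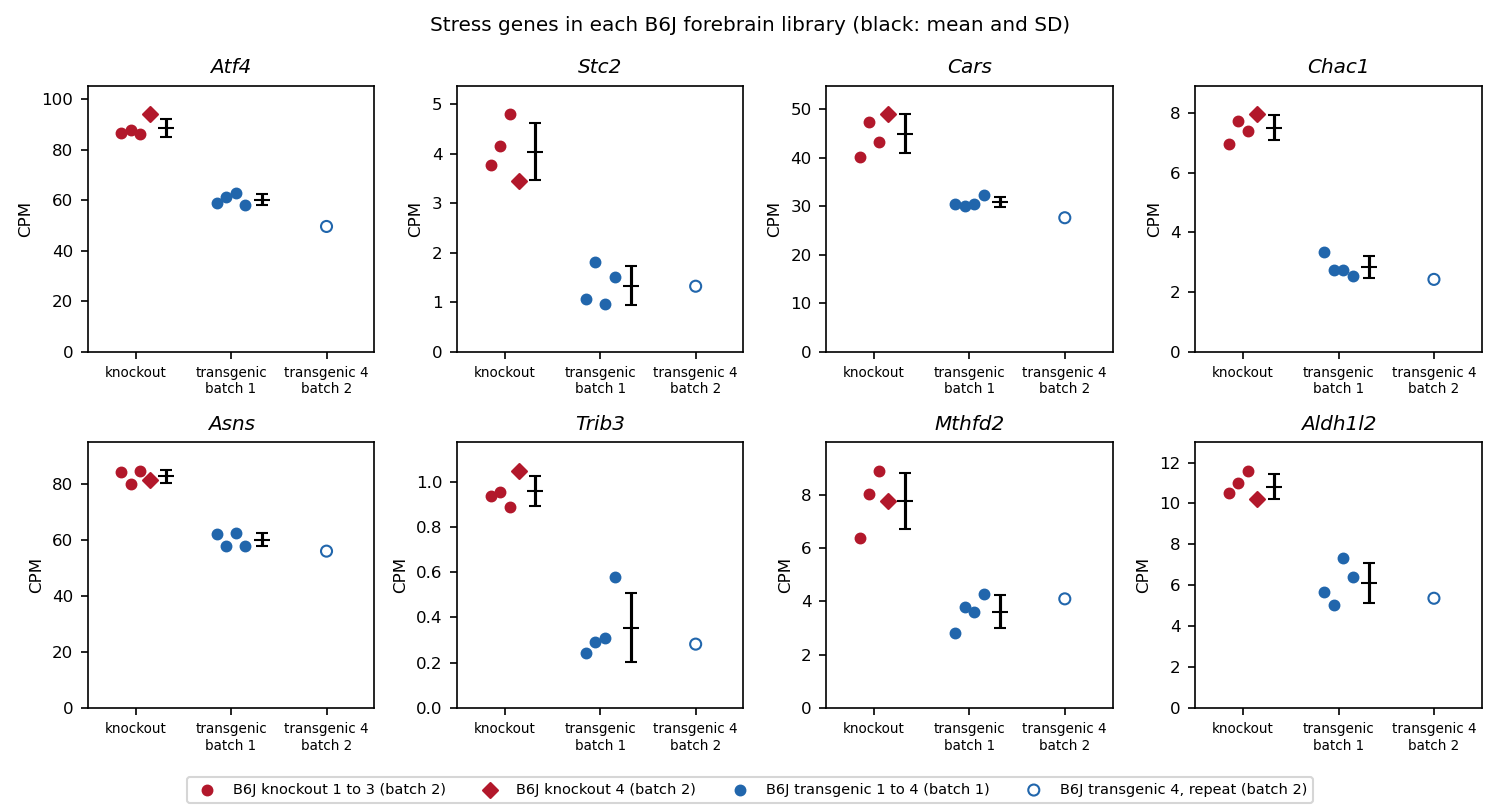
CPM of 8 stress genes in each library (y axes start at 0), with the 4 knockout libraries left of the 4 batch 1 transgenic libraries and of the repeat of transgenic mouse 4; points are libraries and the black mark is the mean with its SD. In all 8 panels the lowest knockout library lies above the highest transgenic library, and knockout 4, the male, lies among the other knockouts or next to them.

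Enzymes of amino acid and one-carbon metabolism followed, with 3 of 15 rising (against 0.546% of all genes) and none falling. Of the 15, 14 lay above 0 (median 0.33). Asns, which makes asparagine, was at 84.2, 80.0, 84.6 and 81.4 CPM in knockout mice and at 62.1, 57.9, 62.3 and 57.9 CPM in transgenic mice, with 55.9 CPM in the repeat library. The spread within each group was small, and the log2 rise was 0.51 ± 0.09 (SE, edgeR adjusted p = 0.00343); with the length offset its adjusted p was 0.14. Mthfd2, a mitochondrial folate enzyme, averaged 7.77 ± 1.05 CPM in knockout and 3.61 ± 0.609 CPM in transgenic mice (SD, n = 4 each) and rose 2.25-fold (adjusted p = 0.00865, edgeR). Aldh1l2, which acts later in the same mitochondrial folate pathway, averaged 10.8 ± 0.599 CPM in knockout and 6.11 ± 0.983 CPM in transgenic mice and rose 2.1-fold (adjusted p = 0.00343, edgeR). With the length offset neither was called: the log2 fold change was 0.73 for Mthfd2 and 0.995 for Aldh1l2 (adjusted p = 0.44 and 0.134). Mthfd2 was also not called with the choroid plexus covariate (adjusted p = 0.056). Shmt2, the mitochondrial serine hydroxymethyltransferase, missed the threshold (log2 0.73 ± 0.19, adjusted p = 0.0521). Phgdh and Psat1, which catalyse early steps of serine synthesis, had log2 fold changes of 0.33 ± 0.10 and 0.27 ± 0.10 and did not pass either (adjusted p = 0.101 and 0.22).

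Amino acid transporters were split. Of 12 tested, 2 rose (against 0.546% of all genes) and none fell, but only 6 lay above 0 and the list median was -0.01. Slc7a1, the main carrier of arginine and lysine, was at 45.9, 51.9, 41.9 and 45.1 CPM in knockout mice, against 35, 37.4, 35.7 and 35.6 CPM in transgenic mice and 32.8 CPM in the repeat library. The groups did not overlap, and the log2 rise was 0.48 ± 0.11 (SE, edgeR adjusted p = 0.0247). Slc7a5, the light chain of the LAT1 carrier of large neutral amino acids, rose by 0.60 ± 0.15 (adjusted p = 0.0475). The call of Slc7a5 was lost in 10 settings, among them leaving out knockout 1, 2 or 4 (adjusted p = 0.0549, 0.07 and 0.0698), and with the length offset its log2 fold change was 0.25 (adjusted p = 0.877). Slc7a1 too was not called with the length offset (log2 0.32, adjusted p = 0.447) or the choroid plexus covariate (adjusted p = 0.0543). Slc7a3, a second arginine carrier, was at 10.7 to 13.7 CPM in knockout, 4.46 to 6.14 CPM in batch 1 transgenic and 6.65 CPM in the repeat library, yet its log2 fold change of 0.95 ± 0.27 did not pass (adjusted p = 0.112). Slc7a11, the cystine carrier, was at -0.07 ± 0.10 (adjusted p = 0.868).

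The stress-induced tRNA synthetases were the list with the largest share of calls of those shown here. Of 12, 6 rose (against 0.546% of all genes), none fell and all 12 lay above 0 (median 0.37). Cars, the cysteinyl-tRNA synthetase, was at 40.2, 47.4, 43.2 and 48.9 CPM in knockout mice and at 30.4, 30.1, 30.4 and 32.3 CPM in transgenic mice, with 27.6 CPM in the repeat library. Its knockout range lay wholly above the transgenic one, and it rose 1.71-fold (log2 0.77 ± 0.11, SE, edgeR adjusted p = 0.00039). With the offset for transcript length its adjusted p was 0.153, and it stayed called in the other alternatives. Aars, Nars, Sars, Yars and Gars, which charge tRNAs for alanine, asparagine, serine, tyrosine and glycine, rose by 0.34 to 0.45 in log2. Each of these 5 also did not overlap any transgenic library, as for Nars at 153 to 162 CPM in knockout and 118 to 136 CPM in the transgenic libraries. By comparison, none of the 8 other cytosolic synthetases passed (median 0.05), including Rars, the arginyl-tRNA synthetase, at 34.0 to 38.3 CPM in knockout and 29.9 to 31.1 CPM in batch 1 transgenic mice (log2 0.20 ± 0.11, adjusted p = 0.491). None of the 17 mitochondrial synthetases passed, with a median of 0.00.

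**Figure D4:**
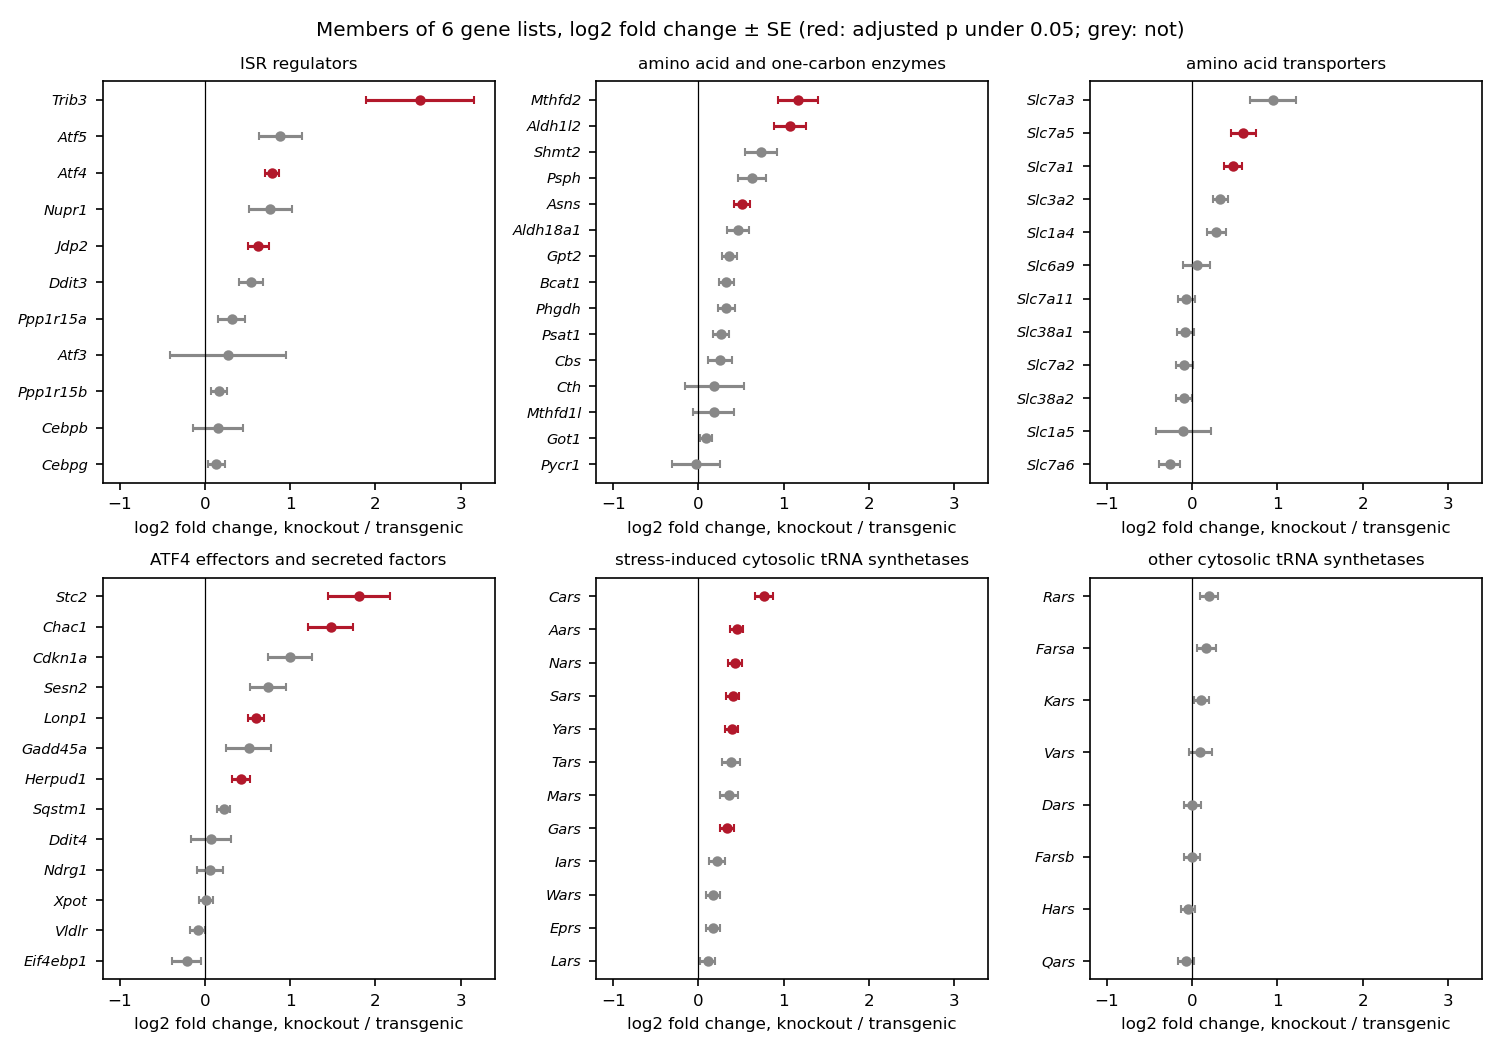
Log2 fold change of knockout over transgenic (x axes) with its SE for each tested member of 6 gene lists (rows); red members passed an adjusted p of 0.05 and grey ones did not. Red members all lie right of 0, from 0.34 for Gars to 2.52 for Trib3, and the other cytosolic synthetases hold none.

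Together, 12 of the 51 tested genes of the 4 ISR lists and 6 of the 12 stress-induced synthetases rose, against 0.546% of all genes, and none fell. Of the 51, 27 were above all 5 transgenic libraries, against 4.36% of all genes. The counts moved with the setting: with knockout 4 alone 6 and 4 rose, with the 9 libraries fitted on their own 3 and 1, with an offset for transcript length 4 and 3, and with the choroid plexus covariate 9 and 5. Leaving out transgenic mouse 1 or 3 gave 23 or 20 ISR genes that rose. The medians of the upstream machinery were near 0: none of 13 eIF2 kinases and eIF2 subunits passed (median 0.08), and Eif2ak4, which encodes GCN2, was at 29.4 to 33.0 CPM in knockout and 31.3 to 31.6 CPM in batch 1 transgenic mice.

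Transcripts of Atf4 and Cars were also compared by isoform, as levels only. Atf4-201, the protein-coding form, averaged 84.0 ± 3.94 CPM in knockout and 55.7 ± 2.85 CPM in transgenic mice (SD, n = 4 each), and was at 44.7 CPM in the repeat library. The retained-intron form Atf4-203 was near 5 CPM in both groups, at 4.69 ± 0.877 CPM in knockout and 4.52 ± 0.872 CPM in transgenic mice. Of the protein-coding forms of Cars, Cars-202 averaged 30.5 ± 3.63 CPM in knockout and 19.4 ± 1.82 CPM in transgenic mice, while Cars-201 averaged 6.6 ± 0.88 CPM and 5.4 ± 0.375 CPM in those groups. Cars-202 in knockout mice was above all 5 transgenic libraries; Cars-201 overlapped. Per unit of length, in transcripts per 1000000 (TPM), knockout forebrain held Asns at 33.4 ± 4.59, Atf4 at 31.3 ± 4.45, Cars at 17.1 ± 3.15, Chac1 at 2.53 ± 0.349 and Stc2 at 0.794 ± 0.205. The induced effectors Chac1 and Stc2 were thus rare beside Atf4 and Asns even in knockout mice.

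ATF4 is known to bind, with a C/EBP partner, a composite element whose core reads TGATGNAA. This core was searched on both strands (TTNCATCA on the other) in RefSeq promoter windows of GRCm38.p6, from 250 bases before to 50 bases after each annotated start. The 2 spellings cannot both match at 1 position. Of 27025 genes with a window, 1219 (4.51%) held it. Of the 18 ISR and synthetase genes that rose, 14 had a window and 8 of these held the core, and of the members that did not pass, 9 of 34 did. The 4 without a window were Aldh1l2, Slc7a5, Cars and Nars. The 8 windows with a match are shown for 100 bases each, since they belong to genes that rose; capitals mark the core.
Chac1: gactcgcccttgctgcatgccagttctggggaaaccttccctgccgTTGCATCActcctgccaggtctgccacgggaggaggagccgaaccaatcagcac
Asns: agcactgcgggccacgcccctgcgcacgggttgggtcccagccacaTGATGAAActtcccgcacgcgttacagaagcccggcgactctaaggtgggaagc
Jdp2: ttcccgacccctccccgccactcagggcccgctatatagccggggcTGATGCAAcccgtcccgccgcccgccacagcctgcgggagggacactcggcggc
Trib3: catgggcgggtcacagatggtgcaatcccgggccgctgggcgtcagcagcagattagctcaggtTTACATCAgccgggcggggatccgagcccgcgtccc
Herpud1: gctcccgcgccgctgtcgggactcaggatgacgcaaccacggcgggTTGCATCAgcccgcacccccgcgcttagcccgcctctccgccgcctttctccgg
Aars: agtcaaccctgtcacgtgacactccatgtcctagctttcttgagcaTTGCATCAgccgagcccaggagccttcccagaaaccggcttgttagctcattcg
Gars: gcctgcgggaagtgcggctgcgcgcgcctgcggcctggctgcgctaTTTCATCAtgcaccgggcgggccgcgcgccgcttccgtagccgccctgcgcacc
Yars: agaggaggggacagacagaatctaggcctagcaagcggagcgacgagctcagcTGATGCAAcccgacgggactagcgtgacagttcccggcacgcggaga
All are written 5′ to 3′ on the strand of the gene. Chac1 is at chr2:119351003-119351102 (plus strand), Asns at chr6:7693179-7693278 (minus strand), Jdp2 at chr12:85599337-85599436 (plus strand) and Trib3 at chr2:152344011-152344110 (minus strand). Herpud1 is at chr8:94386271-94386370, Aars at chr8:111033684-111033783, Gars at chr6:55037925-55038024 and Yars at chr4:129189853-129189952, all on the plus strand. The core begins 193 bases before the annotated start in Chac1, 112 in Herpud1 and Aars, 33 in Jdp2, 30 in Gars and 23 in Asns, and after the start in Trib3 and Yars. Atf4 and Stc2 had a window without this core. A match describes the letters only; no binding was measured.

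Genes of the glucocorticoid response were a further group with members that rose. Of 19 tested, 4 rose (against 0.546% of all genes) and none fell, and 17 lay above 0 (median 0.44). Of the 19, 13 were above all 5 transgenic libraries (against 4.36% of all genes) and 1, Dusp1, was below them (against 3.33%). Plin4, a lipid droplet protein, was at 27.6, 25.7, 24.4 and 30.4 CPM in knockout mice, against 7.37, 12.5, 10.1 and 12.2 CPM in transgenic mice and 9.64 CPM in the repeat library. Every knockout library was far above the highest transgenic one, and Plin4 rose 3.28-fold (log2 1.71 ± 0.29, SE, edgeR adjusted p = 0.00853). Fkbp5, the co-chaperone that dampens the glucocorticoid receptor, was at 38.2, 35.2, 39.2 and 43.4 CPM in knockout mice and at 27.3, 26.2, 27.9 and 29.1 CPM in transgenic mice, with 28 CPM in the repeat library (log2 0.55 ± 0.13, adjusted p = 0.0295), and with the choroid plexus covariate its adjusted p was 0.089. Sult1a1, a phenol sulfotransferase, rose by 0.97 ± 0.17 (adjusted p = 0.00338), and Map3k6, a stress kinase, by 1.05 ± 0.26 (adjusted p = 0.0419). Map3k6 lost the call without knockout 1 (adjusted p = 0.0737) and had a log2 fold change of 0.38 with no batch term (adjusted p = 0.0515). Sgk1, a kinase that glucocorticoids induce, was at 86.3 to 129 CPM in knockout and 53.1 to 79.9 CPM in the transgenic libraries, without passing (log2 0.66 ± 0.39, adjusted p = 0.574). Blood markers, which handling and perfusion can shift, summed to 181 to 225 CPM in knockout, 125 to 218 CPM in batch 1 transgenic and 118 CPM in the repeat library; their part in these changes was not tested.

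Immediate early genes, which neuronal firing induces, were mostly lower without passing the test. None of 25 passed, 21 lay at or below 0 and the median was -0.22. Of the 25, 13 were below all 5 transgenic libraries (against 3.33% of all genes) and 2 above them (against 4.36%). Bdnf, which was above them, was at 29.0 to 30.9 CPM in knockout and 19.2 to 23.5 CPM in the transgenic libraries (log2 0.44 ± 0.14, edgeR adjusted p = 0.147). Fos was at 14.2, 14.7, 12.7 and 13.7 CPM in knockout mice and at 28.8, 39.7, 25.8 and 29.0 CPM in transgenic mice, with 26.7 CPM in the repeat library (log2 -1.02 ± 0.36, edgeR adjusted p = 0.264). Npas4 was at 7.81 to 8.21 CPM in knockout and 11.7 to 25.2 CPM in the transgenic libraries (log2 -1.04 ± 0.44, adjusted p = 0.368). Knockout values of Fos and Npas4 were close together, while their transgenic values spread widely.

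Proteostasis genes gave few calls. Of 10 heat shock genes, 2 rose (against 0.546% of all genes) and 4 were above all 5 transgenic libraries (against 4.36%). Hspa1b, an inducible HSP70, was at 8.83 to 10.9 CPM in knockout and 4.4 to 7.13 CPM in the transgenic libraries (log2 1.24 ± 0.28, edgeR adjusted p = 0.0335). Hspb1, the small heat shock protein HSP27, had a log2 fold change of 1.20 ± 0.28 (adjusted p = 0.0252), with knockout values of 2.81 to 4.4 CPM that overlapped the batch 1 values of 2.47 to 4.11 CPM. Of 18 genes of the unfolded protein response of the endoplasmic reticulum, 1 rose (against 0.546% of all genes). Of the 18, 7 were above all 5 transgenic libraries (against 4.36%). The list summed to 1480 to 1530 CPM in knockout, 1260 to 1380 CPM in batch 1 transgenic and 1300 CPM in the repeat library. The gene called was Creld2, a secreted chaperone-like protein, which rose by 0.65 ± 0.16 (edgeR adjusted p = 0.0488). Its knockout values of 8.9 to 11.3 CPM likewise overlapped the batch 1 values of 7.53 to 10.2 CPM. Without knockout 1 none of these 3 genes was called (adjusted p = 0.06 for Hspa1b, 0.0557 for Hspb1 and 0.0706 for Creld2), and with no batch term the log2 fold changes of Hspb1 and Creld2 were 0.30 and 0.18 (adjusted p = 0.21 and 0.2). Of 17 genes of ribosome rescue only Edf1 passed (against 0.546% of all genes that rose), as described above. The lists of mTORC1 and insulin signalling (22 tested, median 0.07), sterol and fatty acid synthesis (23, median -0.08) and tRNA processing and polymerase III (35, median 0.07) held no call.

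Translation factors and mitochondrial subunits were looked at after their values had been seen, so their counts describe and do not test. Of 12 subunits of the initiation factor eIF3, 3 were called higher, against 0.546% of all genes (Eif3a, Eif3b and Eif3c, log2 0.34 to 0.42). Each of these was above all 5 transgenic libraries. Eef1a1, the elongation factor that carries charged tRNAs to the ribosome, was at 1530 to 1540 CPM in knockout and 1230 to 1430 CPM in the transgenic libraries (log2 0.31 ± 0.07, edgeR adjusted p = 0.0165). Of 85 tested cytosolic ribosomal proteins 3 were called higher (against 0.546% of all genes), with a median of 0.16. The family summed to 7040 to 7620 CPM in knockout, 7100 to 7730 CPM in batch 1 transgenic libraries and 6500 CPM in the repeat library. Of its tested members 5 lay above and 6 below all 5 transgenic libraries, against 4.36% and 3.33% of all genes. Below the 4 batch 1 libraries alone lay 16, a count for which no share over all genes was taken. Nolc1, a nucleolar chaperone, was at 49.2 to 52.5 CPM in knockout and 35.9 to 45.2 CPM in the transgenic libraries (log2 0.58 ± 0.09, adjusted p = 0.00136). Of 93 nuclear subunits of oxidative phosphorylation, 5 were called lower (against 0.192% of all genes) and 1 higher, with a median of 0.02. Cox8a, a small subunit of cytochrome oxidase, was at 140 to 151 CPM in knockout and 181 to 195 CPM in the transgenic libraries (log2 -0.39 ± 0.09, adjusted p = 0.0313). The mitochondrially encoded mt-Co1 and mt-Nd1 were called higher, at 0.32 ± 0.06 and 0.46 ± 0.09 in log2 (adjusted p = 0.00291 and 0.0165). The 13 mitochondrial messenger RNAs summed to 28700, 27700, 27900 and 30700 CPM in knockouts 1 to 4. That sum did not follow the higher mitochondrial share of knockouts 1 and 2 given above. There mt-Rnr2 alone took 8.69% and 8.76% of counts, against 5.45% and 5.72% in knockouts 3 and 4.

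Synaptic lists held no call. None of 20 GABA synapse genes (median -0.07), 38 glutamate synapse genes (median 0.01), 32 genes of presynaptic release (median 0.00) or 38 potassium, sodium and HCN channel genes (median -0.07) passed. Gabra2, whose B6J allele is known to lower its expression, was at 54.9, 53.7, 60.7 and 53.3 CPM in knockout mice and at 47.9, 52.1, 52.2 and 52.5 CPM in transgenic mice. Both groups were at about the level of B6J mice without the transgene (47.2 to 54.7 CPM), and well under the 99.2 to 104 CPM of B6N mice. None of 23 neuropeptide genes or 19 interneuron markers passed either (medians -0.12 and -0.21), though 6 of the interneuron markers lay below all 5 transgenic libraries, against 3.33% of all genes. Ndnf, which marks neurogliaform interneurons, was at 14.2 to 15.6 CPM in knockout and 19.7 to 23.8 CPM in the transgenic libraries (log2 -0.49 ± 0.13, edgeR adjusted p = 0.0693). With the offset for transcript length its log2 fold change was only -0.085 (edgeR adjusted p = 0.973). Pvalb, the calcium buffer of fast-spiking interneurons, was at 17.8 to 21.4 CPM in knockout and 24.3 to 31.6 CPM in the transgenic libraries (adjusted p = 0.148).

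**Figure D5:**
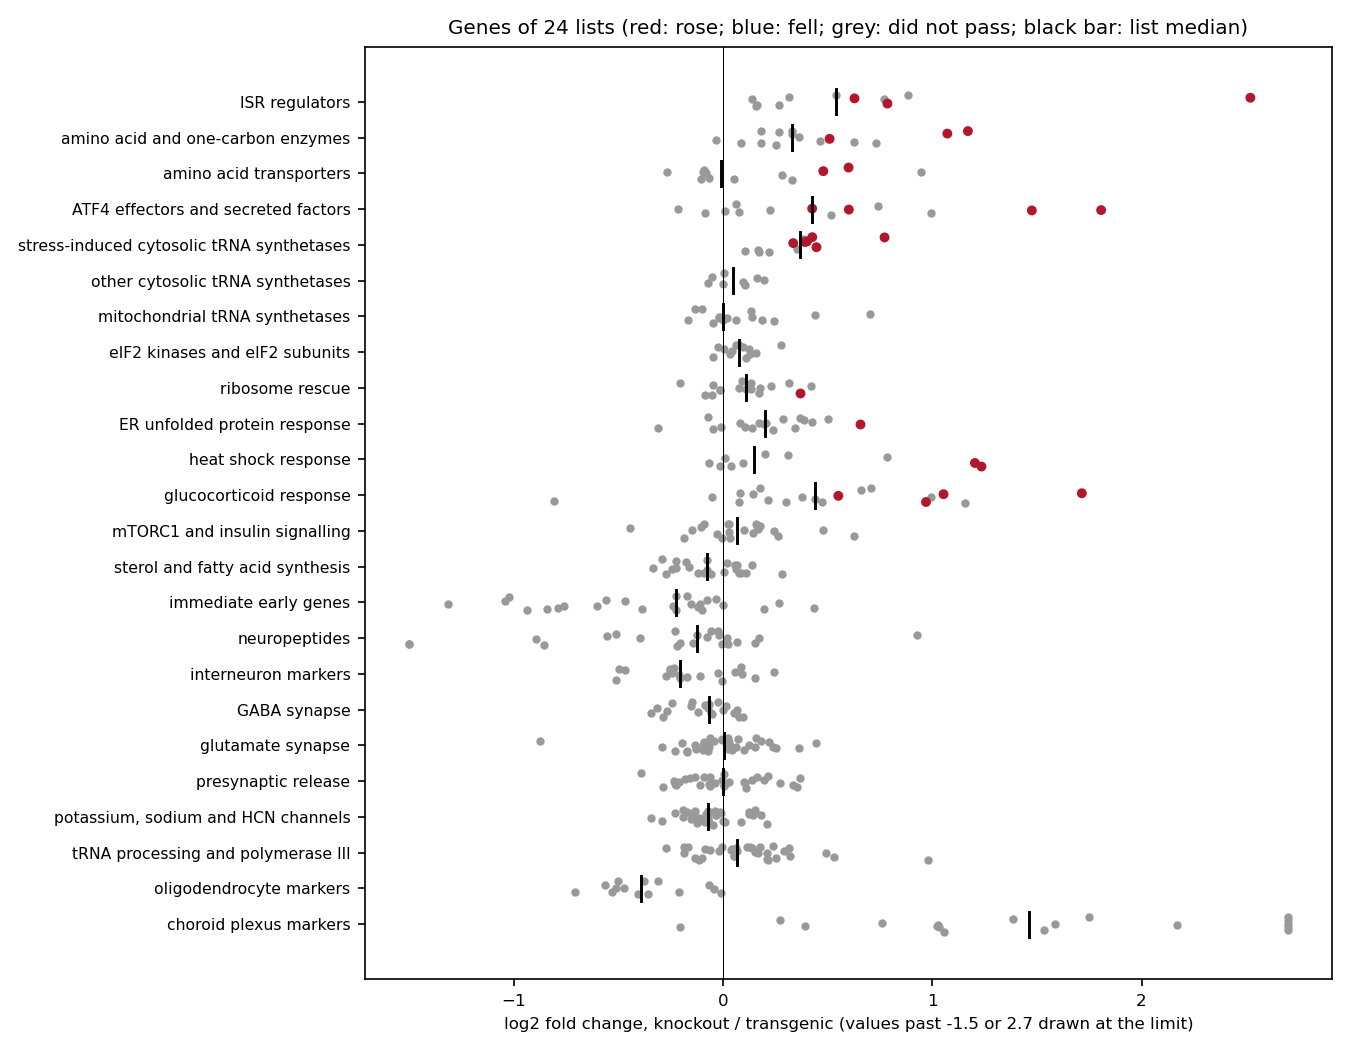
Log2 fold change of knockout over transgenic (x axis) for the tested members of 24 gene lists (rows), with small vertical scatter to separate points; red members rose, grey did not pass, no member of these lists fell, and the black bar is the list median; values past the axis limits are drawn at them. Calls sit in the ISR, synthetase, ribosome rescue, unfolded protein, heat shock and glucocorticoid rows, while choroid plexus markers have the highest median (1.46) with no call.

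Receptors were the best-known genes among those that fell. Gpr12, an orphan receptor that raises cyclic AMP in neurons, was at 10.9, 11.3, 11.8 and 11.4 CPM in knockout mice, against 17.0, 16.1, 14.5 and 13.7 CPM in transgenic mice and 18.5 CPM in the repeat library. No knockout library reached the lowest transgenic one, and the log2 fold change was -0.87 ± 0.14 (SE, edgeR adjusted p = 0.00153). Cnr1, the cannabinoid receptor of presynaptic terminals, was at 168, 153, 163 and 156 CPM in knockout mice and at 202, 200, 185 and 190 CPM in transgenic mice, with 218 CPM in the repeat library (log2 -0.48 ± 0.08, adjusted p = 0.00291). Both receptors were thus lower in every knockout library than in any of the 5 transgenic ones. Trim59, a ubiquitin ligase of the TRIM family, was at 4.79 to 5.48 CPM in knockout and 6.64 to 8.79 CPM in the transgenic libraries (log2 -0.85, adjusted p = 0.0243). Ndufb6, a subunit of respiratory complex I, was at 17.3 to 20.6 CPM in knockout and 22.5 to 26 CPM in the transgenic libraries (log2 -0.54, adjusted p = 0.0482), and lost the call when knockout 1, 2 or 3 was left out (adjusted p = 0.0542, 0.076 and 0.0608). Zmat3, an RNA-binding target of p53, fell by 0.44 ± 0.09 on the log2 scale (adjusted p = 0.0118). Enpp6, a choline enzyme of newly forming oligodendrocytes, was at 5.83 to 8.08 CPM in knockout and 8.79 to 10.8 CPM in the transgenic libraries (log2 -0.76 ± 0.18, adjusted p = 0.0326), and was not called without knockout 1 (adjusted p = 0.0734).

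Marker lists moved beside these genes. None of 14 oligodendrocyte markers passed and none lay above 0, with a median of -0.39. Of the 14, 7 were below all 5 transgenic libraries, against 3.33% of all genes. Their summed levels were 2860 to 3580 CPM in knockout, 3500 to 4110 CPM in batch 1 transgenic and 3690 CPM in the repeat library. Of 18 choroid plexus markers 17 were above all 5 transgenic libraries (against 4.36% of all genes) and none passed. Ttr, the transthyretin of that tissue, was at 501, 349, 432 and 376 CPM in knockout mice and at 50.6, 5.21, 3.38 and 4.11 CPM in transgenic mice. Ttr also varied within the other groups of batch 1: it was at 430, 1.77, 0.901 and 0.765 CPM in B6J mice, at 2.6, 1.88, 257 and 1.89 CPM in B6N knockout mice and at 171, 119, 2.74 and 130 CPM in B6N mice. Whether choroid plexus left in the samples plays a part in other calls was not tested beyond the fit that follows. Trpv4, a calcium channel known from choroid plexus epithelium, was called higher (log2 2.30 ± 0.55, edgeR adjusted p = 0.0366), and was not called once the summed choroid plexus markers entered the fit (adjusted p = 0.233). With that covariate 91 genes were called, Atf4, Stc2, Cars and Chac1 among them (adjusted p = 9.55e-05, 0.0374, 0.000994 and 0.0219). Among the highest rises outside these lists, Galm, a galactose mutarotase, was at 1.7 to 1.91 CPM in knockout, 0.869 to 1.45 CPM in batch 1 transgenic and 0.705 CPM in the repeat library (log2 1.68 ± 0.38, adjusted p = 0.0235).

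Male knockout 4 was also set alone against the transgenic mice, which are male. With 1 library in that arm its spread is taken from the other groups, so the p-values assume that it varies as they do. This fit called 63 genes, 51 of them among the 188. Atf4, Cars, Chac1, Asns, Plin4 and Gpr12 were called in that fit, and Stc2 was not (log2 1.59, adjusted p = 0.0916). With females 1 to 3 alone 203 genes were called, 165 of them among the 188. Of 677 X-linked genes tested, 8 (1.18%) were called, against 0.738% of all genes. The knockout group mixes both sexes, so genes that differ by sex spread widely in it, and Xist did not pass (edgeR adjusted p = 0.635). None of 10 sex-linked genes tested passed in the main fit, while with knockouts 1 to 3 alone 4 rose and 4 fell. The X-linked count therefore cannot measure the part of sex. The part of sex in these calls was not tested beyond these fits.

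The knockout effect was last set against that on the B6N background, the B6J effect minus the B6N effect. Of 25481 genes, 62 (0.243%) differed, 43 of them with a higher effect in B6J, and 49 of the 62 were also called in knockout against transgenic B6J mice. Of the 63 tested members of the 4 ISR lists and the stress-induced synthetases 1 passed, Jdp2. Atf4 had a log2 effect of 0.79 in B6J and 0.71 in B6N, a difference of 0.08 (edgeR adjusted p = 0.847), at 88.3 to 97.0 CPM in B6N knockout and 54.9 to 57.7 CPM in B6N mice. A difference of effects in Cars of 0.28 ± 0.12 and in Stc2 of 0.66 ± 0.39 did not pass either (adjusted p = 0.39 and 0.593). The median effect of the ISR regulators was 0.54 in B6J and 0.18 in B6N, that of the effectors 0.43 and 0.12, that of the enzymes 0.33 and 0.29, that of the transporters -0.01 and 0.08, and that of the synthetases 0.37 and 0.26, in the same order. Over all genes it was 0.01 in B6J and 0.00 in B6N, and no test compared the lists.

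In the glucocorticoid list the median effect was 0.44 in B6J and -0.07 in B6N, and 3 of 19 members passed the test of the difference, against 0.243% of all genes. Plin4 had a difference of 1.71 (edgeR adjusted p = 0.0355), at 7.5 to 11.2 CPM in B6N knockout and 7.89 to 10.6 CPM in B6N mice, beside the 24.4 to 30.4 CPM of B6J knockouts. Gpr12 had a difference of -0.90 ± 0.15 (adjusted p = 0.01), with 12.7 to 14.4 CPM in B6N knockout and 12.3 to 14.2 CPM in B6N mice. Ahnak, a large scaffold protein, was at 179 to 188 CPM in B6J knockout and 124 to 154 CPM in the B6J transgenic libraries, and its difference was 0.63 ± 0.10 (adjusted p = 0.01). Both effects share no library, but the B6J effect holds the batch term and the B6N effect, within batch 1, does not. A strain difference and an error in that term therefore cannot be told apart. The B6N and B6N knockout libraries held Ddx3y RNA at 52.0 to 62.4 CPM and were male, unlike B6J knockouts 1 to 3. The B6J effect also has transgenic mice as its baseline, and choroid plexus markers were higher in its knockouts. These differences cannot be told apart from strain either. Rn7sk was also among the 62, at 0.72.

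B6J mice without the transgene, whose n-Tr20 is low but present, lay between both groups for the markers of this comparison. Atf4 was at 86.2 to 94.0 CPM in knockout, 72.9 to 77.7 CPM in B6J and 58.1 to 62.8 CPM in batch 1 transgenic mice, and Cars at 40.2 to 48.9, 34.6 to 38.2 and 30.1 to 32.3 CPM in the same groups. No 2 of these ranges overlapped, but knockout libraries differ from both others also by batch and, in knockouts 1 to 3, by sex. For Gpr12 the B6J range of 10.4 to 12.2 CPM overlapped that of the knockouts (10.9 to 11.8 CPM).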

How the data were processed

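Forebrain RNA of 8-week-old mice was sequenced as ribosomal-RNA-depleted libraries, per the labels' protocols. The authors deposited, for each library, estimated counts and TPM per transcript; the submitters' processing notes name kallisto 0.42.4 and the build mm10. Estimated counts were summed per gene and rounded. edgeR 4.0.16 (R 4.3.3) was run with TMM scaling, a low-count filter (filterByExpr, minimum 10) and quasi-likelihood tests on 21 forebrain libraries, with 5 groups, a batch term and a coefficient of its own for transgenic mouse 4. P-values were adjusted by Benjamini-Hochberg over 25481 genes and called under 0.05. TPM were used for levels only.

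The common biological coefficient of variation was 7.87%. In simulated counts of this comparison on 25162 genes, 46 of 100 genes changed 1.5-fold and 95 of 100 changed 2-fold were recovered, with 8 false calls. The changed genes were drawn only from genes with high counts, and batch 2 shifted each gene equally in all its libraries. Changes in rare genes were therefore not covered. Nor was a batch shift that differs between the repeat and the knockout libraries, or a difference of sex or choroid plexus. Samples were compared for duplicates: no pair differed by as little as sampling noise. Named genes were 33 fixed genes, up to 5 called and 2 other genes per list, the 12 highest and 12 lowest called genes of at least 1 CPM outside sex-linked genes, and up to 8 genes of the strain difference; others named were picked after their values were seen. The members and lists were chosen with earlier results of these data known. Alternatives used limma 3.58.1 and DESeq2 1.42.0 among others.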

Additional observations from a re-analysis of the deposited data

Results flagged for a closer look

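Differences between the knockout effects on the B6J and B6N backgrounds passed edgeR's test of the difference for 18 named genes. On the log2 scale, as B6J effect minus B6N effect, they were 1.71 for Plin4, 0.86 for Sult1a1, 0.69 for Jdp2 and 1.36 for Hspb1. Further positive differences were 1.9 for Galm, 0.63 for Ahnak, 0.77 for Islr2, 0.52 for Camkk1 and 0.57 for Gtf2f1. Among noncoding RNAs and gene models they were 0.72 for Rn7sk, 1.87 for Gm9830, 2.04 for Gm49450 and 7.81 for Gm44123, whose repeat library was at 0. Negative differences were -0.9 for Gpr12, -0.51 for Zmat3, -0.65 for AI593442, -0.46 for Smim13 and -1.3 for Gm10131.

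Some groups of 4 held 1 library far from the other 3, measured as its gap to the nearest library over the group's range. Chance gives such a library in about 1 of 20 groups. With 151 named genes, chance alone can therefore give many of these. Among knockout libraries this share of the range was 0.907 for Xist and 0.988 for Ddx3y, which set apart the male, knockout 4. It was 0.833 for Slc7a3 and 1.0 for Fgf21, which only knockout 4 held, at 0.0585 CPM. It was also 0.941 for Rnf14, 0.857 for Hspa1a, 0.872 for Sesn1, 0.846 for Pus1, 0.883 for Rarres2, 0.936 for Gm10131 and 0.905 for the share of lincRNA, which was 5.18% in knockout 3. Among batch 1 transgenic libraries it was 0.864 for Cars, 0.837 for Sult1a1, 0.961 for Ttr, 0.892 for Xist and 0.913 for Gabra2. It was likewise 0.903 for Mlc1, 0.9 for Aspa and 0.846 for Kdm5c.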

How the results depend on the processing

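Counts of called genes moved with the handling of batch. Knockout against transgenic, with 188 calls, gave 29 with the 9 libraries alone, 3615 with no batch term, 1800 within batch 2 against the repeat library, 460 with DESeq2, 67 with an offset for transcript length, 63 with knockout 4 alone and 91 with the choroid plexus covariate, and 134 to 402 when 1 library was left out. The strain difference, with 62 calls, gave 653 with no batch term, 758 within batch 2, 106 with limma voom (chosen after seeing the data), 252 with DESeq2, 6 with the length offset, 17 with knockout 4 alone and 32 with the covariate, and 53 to 211 when 1 library was left out. Leaving out transgenic mouse 1, 2 or 3 gave 402, 285 and 321 calls against 188; leaving out knockout 3, transgenic mouse 1 or 3 gave 134, 211 and 112 against 62. ISR genes that rose, 12, became 3 with the 9 libraries, 29 with no batch term, 28 within batch 2, 4 with the length offset, 6 with knockout 4 alone and 9 to 23 when 1 library was left out. Synthetases that rose, 6, became 1, 10, 10 and 3 under the first 4 of these and 5 to 8 when 1 library was left out.

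With the replicate number as a block, 1214, 613 and 27 genes were called in the 2 comparisons and the ISR lists; same-numbered libraries correlated at -0.027 to 0.008, so the numbers pair nothing. Without a filter 92 genes rose and 87 fell. With no batch term mt-Nd3 (0.755), Edf1 (-0.099), Gm20431 (-0.573) and Rn7sk (-0.214) changed sign. The cause of these moves was not tested. A fit with a correlation over mice was not run, and no batch term can be fitted without transgenic mouse 4.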
